A study of Mus musculus with 6 samples.

Results

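Fatty acid oxidation and ketone body synthesis were followed through 45 genes listed by symbol. Array probes were assigned to these genes through the accession printed for each probe, with no measured value used in the choice. The list found 60 probes, 34 genes had a single probe and 11 had several, and 44 of the 45 genes were measured among 17991 genes tested. The exception was Cyp4a12a, an omega-hydroxylase that is male-biased in mouse liver, whose only probe stayed at background on all 6 arrays. All 44 measured genes were well above background on all 6 arrays, so none entered the test through 1 genotype alone.

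In liver, long-chain fatty acids are first activated to acyl-CoA esters and then carried into mitochondria as carnitine esters. Mitochondrial beta-oxidation cuts them to acetyl-CoA, which the liver turns into ketone bodies for export during fasting. Peroxisomes shorten the very long chains, and the Cyp4a enzymes hydroxylate the far (omega) end of the chain. The nuclear receptor PPARA, which is activated by fatty acids, drives many of these genes, with Cyp4a10, Cyp4a14 and Vnn1 among its most responsive targets in mouse liver.

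The arrays hold liver RNA of 3 wild-type C57Bl/6 mice (WT) and 3 Itpr2 knockout mice (Itpr2KO), all aged 23 months. Itpr2 encodes an inositol trisphosphate receptor, a calcium channel of the endoplasmic reticulum. The livers came from an untreated survival cohort that was kept on standard diet and water under specific pathogen-free conditions. The animals were independent, 1 array each, and the labels give neither the tissue range of the deletion, nor sex, nor the feeding state at death. A level here is the log2 Cy3 signal of a gene's probe after subtraction of that array's 75th percentile, and a change is the Itpr2KO mean minus the WT mean of such levels. They compare a gene between arrays and not different genes with each other. WT 1, WT 2 and Itpr2KO 1 shared slide 1, and WT 3, Itpr2KO 2 and Itpr2KO 3 shared slide 2.

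Several facts of the whole series bear on the values. The targeted gene had levels of 3.04, 3.07 and 3.08 in WT and 2.54, 2.38 and 2.20 in Itpr2KO, without overlap, and the exact two-sided permutation p was 0.1, the smallest that 3 against 3 arrays can give. The share of probes above background was 57.5% to 59.5% per array, saturation was not seen, and the small number of arrays limits precision. The 75th percentile of the spot signal was lowest on Itpr2KO 3, at 278, and was 359 to 394 on the other arrays. The part of this lower signal in the values was not tested. Of 13 striated muscle markers (Acta1 and Ckm among them), all were above background on WT 1 and Itpr2KO 3 and 5 on each other array. The log2 of their summed level was 7.10 on WT 1 and 7.19 on Itpr2KO 3, against -0.99 to -0.50 on the other 4 arrays. The summed level of 9 hepatocyte markers (Alb and Apoa1 among them) was 10.21 to 10.43 on WT arrays and 10.28 to 10.70 on Itpr2KO arrays. Results that rest on WT 1 or Itpr2KO 3 are therefore in many cases also given without 1 of these arrays or without both. Xist was above background on all 6 arrays, with levels from 0.08 to 0.78, and the 4 Y-linked genes of the marker list were above background on none.

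The fatty acid oxidation genes were mostly lower on average in the Itpr2KO livers, by modest amounts, and none passed the test across all genes. Of the 44 measured genes, 37 had a lower mean in Itpr2KO, where 45.9% of all genes did. The median change was -0.29, with a range from -2.15 for Vnn1 to 0.27 for Acsl4, against a median of 0.02 over all genes. Limma adjusted p-values ran from 0.811 to 0.998, and 0.00556% of all genes were called at 0.05. At an unadjusted limma p under 0.05, 6 genes were lower (Crat, Acads, Pex11a, Slc22a5, Cyp4a14 and Bdh1), beside 2.66% of all genes, and 0 were higher, beside 3.46%. All 3 Itpr2KO arrays lay below all 3 WT arrays for 6 genes (Slc25a20, Slc22a5, Crat, Acads, Decr1 and Cyp4a14), beside 5.11% of all genes. By the probes standing for the genes, the opposite arrangement occurred for 0 of the 44, beside 6.85% of all genes.

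**Figure D1:**
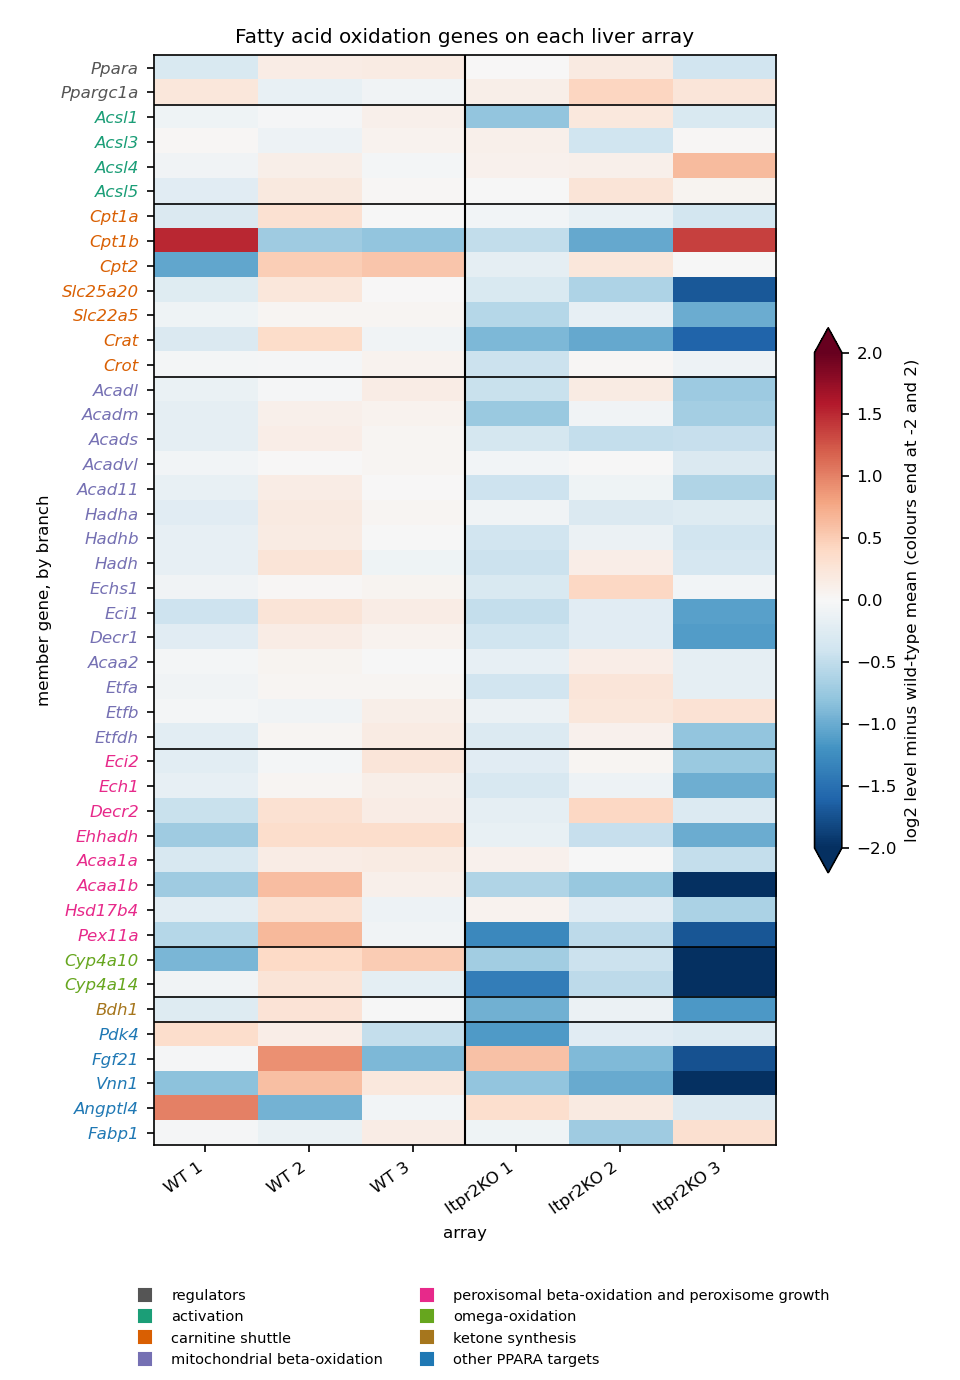
Log2 level of each of the 44 measured genes (rows, ordered by branch) on each of the 6 arrays (columns), relative to that gene's WT mean; the colour scale ends at -2 and 2. Itpr2KO 1 and Itpr2KO 3 are mostly blue, Itpr2KO 2 is mixed, and Cpt1b is high on WT 1 and Itpr2KO 3.

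The 3 knockout livers did not share the difference equally. Itpr2KO 3 lay below all WT arrays for 32 of the 44 genes (72.7%), where it did so for 30.0% of all genes. Itpr2KO 1 lay below all WT arrays for 25 (56.8%), against 31.6% of all genes. Itpr2KO 2 did so for 13 (29.5%), against 28.0% of all genes, and lay above all WT arrays for 10 (22.7%), against 35.3% of all genes. The median distance from the WT mean was -0.31 on Itpr2KO 1, -0.11 on Itpr2KO 2 and -0.43 on Itpr2KO 3. Among WT arrays, WT 2 held the highest of the 6 values for 20 genes and WT 3 for 8.

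The count of genes at an unadjusted limma p under 0.05 depended on which arrays entered. It was 8 without WT 1, 1 without WT 2 and 1 without WT 3, beside 1.82%, 1.94% and 1.73% of all genes. It was 5 without Itpr2KO 1, 14 without Itpr2KO 2 and 3 without Itpr2KO 3, beside 4.33%, 3% and 4.52% of all genes. The median change was -0.19 without Itpr2KO 3. Without WT 1 and Itpr2KO 3, the arrays with muscle transcripts, 38 of 44 genes had a lower mean in Itpr2KO, beside 47.3% of all genes, and the median change was -0.27. In that fit of 2 against 2 arrays, 10 genes were lower at an unadjusted p under 0.05, beside 3.54% of all genes, and 0 were higher. They were Slc25a20, Crat, Acads, Eci1, Ehhadh, Acaa1b, Pex11a, Cyp4a10, Cyp4a14 and Vnn1, and the limma adjusted p-values of the 44 ran from 0.552 to 0.999. Both remaining Itpr2KO arrays lay below both WT arrays for 22 genes, beside 16.4% of all genes. The opposite arrangement held for 2, Ppargc1a and Angptl4, whose changes in that fit were 0.39 and 0.76. For the counts of higher genes in that fit, the share of all genes was not computed. Within slide 1 the median change of the 44 was -0.29 and 33 were lower, and within slide 2 it was -0.35 and 37 were lower, with 29 lower on both. Among all genes with a value, 9406 of 17931 were lower within slide 1 and 8197 of 17941 within slide 2, with 4416 lower on both.

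**Figure D2:**
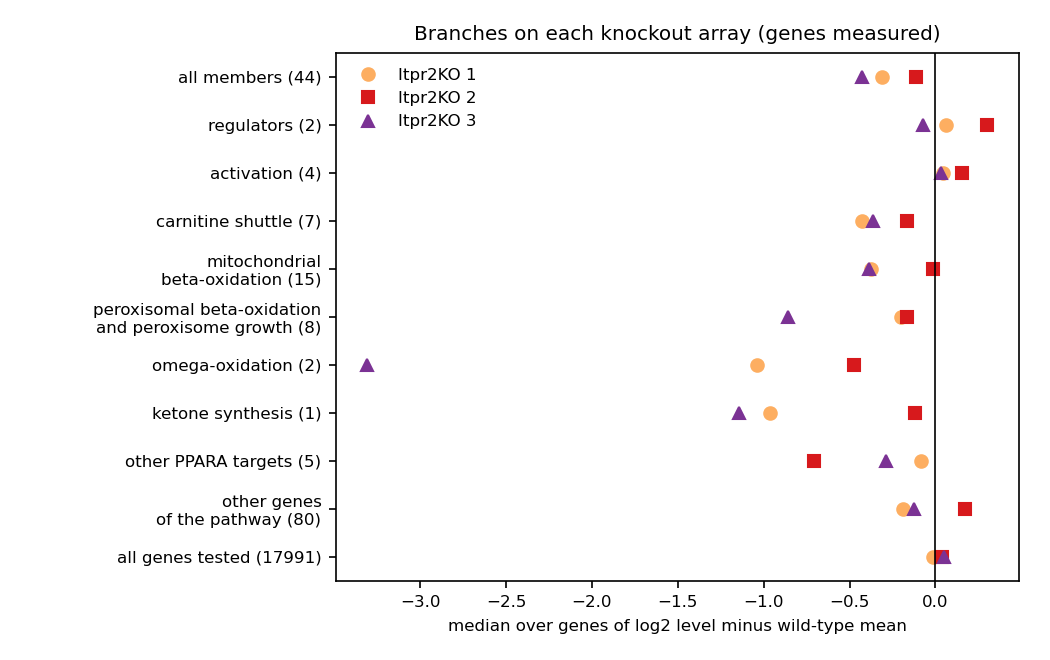
Median over the genes of each branch of the log2 level minus the WT mean (horizontal axis), shown for each of the 3 Itpr2KO arrays; numbers in brackets are genes measured. Omega-oxidation on Itpr2KO 3, at -3.31, lies farthest from 0, and all genes tested lie at -0.02 to 0.05.

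Neither of the regulator transcripts passed the test, and their changes had opposite signs. Ppara, the receptor that drives the pathway, had levels of 3.59, 4.05 and 4.07 in WT and 3.91, 4.08 and 3.52 in Itpr2KO. The groups overlapped throughout, and the change was -0.07 ± 0.21 (SE). Ppargc1a, a coactivator of oxidative metabolism, had levels of 0.21, -0.18 and -0.10 in WT and 0.09, 0.41 and 0.22 in Itpr2KO. Its change was 0.26 ± 0.16 (SE). Its second probe had levels of -3.82, -3.93 and -3.71 in WT and -3.58, -3.16 and -2.96 in Itpr2KO. All Itpr2KO arrays lay above all WT arrays on that probe, a difference of 0.59 ± 0.19 (SE, limma adjusted p = 0.805 over probes). Ppargc1a was thus among the 7 genes with a higher mean in Itpr2KO, without passing the test.

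The acyl-CoA synthetases, which activate fatty acids, had a median change of 0.00, with 2 of 4 lower. Acsl1, the main long-chain synthetase of liver, had levels of 6.20, 6.25 and 6.39 in WT and 5.50, 6.50 and 5.97 in Itpr2KO. Itpr2KO 1 and Itpr2KO 3 lay below the WT range for Acsl1 and Itpr2KO 2 above it, and the change was -0.29 ± 0.26 (SE). The second Acsl1 probe gave -0.68 ± 0.31 (SE). Acsl4, which prefers arachidonic acid, had levels of 2.94, 3.13 and 2.97 in WT and 3.10, 3.11 and 3.64 in Itpr2KO, a change of 0.27 ± 0.18 (SE). Itpr2KO 3 stood above the other arrays for Acsl4. The changes of Acsl3 and Acsl5 were -0.10 ± 0.17 (SE) and 0.10 ± 0.16 (SE).

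In the carnitine shuttle, the carrier, the uptake transporter and the acetyl transferase were lower on every knockout array. The Cpt enzymes overlapped between genotypes by the probes that stand for them, and the Cpt1b and Cpt2 changes had wide errors. The median change of the 7 genes was -0.19, with 6 lower in Itpr2KO. It was -0.50 without WT 1 and -0.41 without WT 1 and Itpr2KO 3, and within slides 1 and 2 it was -0.39 and -0.44. Crat, carnitine acetyltransferase, which moves acetyl groups between carnitine and coenzyme A, had levels of -2.21, -1.56 and -1.99 in WT and -2.82, -2.94 and -3.51 in Itpr2KO. The groups did not overlap, the change was -1.17 ± 0.25 (SE), a level 2.25-fold higher in WT, and its unadjusted limma p was the smallest of the 44 (limma adjusted p = 0.811). This signal lay below the array's 75th percentile, and normexp background correction turned the Crat change to 0.55.

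Slc22a5 encodes the plasma membrane carnitine transporter OCTN2. Its levels were -0.62, -0.49 and -0.49 in WT and -1.11, -0.70 and -1.53 in Itpr2KO, a change of -0.58 ± 0.22 (SE, limma adjusted p = 0.811). Slc25a20, the carnitine-acylcarnitine translocase of the inner mitochondrial membrane, had levels of 1.66, 2.13 and 1.91 in WT and 1.60, 1.29 and 0.20 in Itpr2KO. All 3 Itpr2KO arrays lay below WT for both transporters, with Itpr2KO 3 the lowest. The Slc25a20 change was -0.87 ± 0.37 (SE), with -0.30 within slide 1 and -1.17 within slide 2. It was -0.46 without Itpr2KO 3, and -0.58 ± 0.20 (SE) without both WT 1 and Itpr2KO 3. The Slc22a5 change was -0.37 without Itpr2KO 3.

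Cpt1a, the liver form of the rate-controlling carnitine palmitoyltransferase, had levels of 3.58, 4.18 and 3.86 in WT and 3.81, 3.72 and 3.51 in Itpr2KO. These ranges overlapped, and the change was -0.19 ± 0.19 (SE). The second Cpt1a probe gave -0.44 ± 0.22 (SE). The changes of Slc25a20 and Cpt1a differed by -0.68, with an exact two-sided permutation p of 0.1 and an adjusted value of 0.2 over 6 pairs of genes, all picked after their values had been seen. Crot, the peroxisomal carnitine octanoyltransferase, changed by -0.16 ± 0.15 (SE).

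Cpt2, the inner-membrane carnitine palmitoyltransferase, was read differently by its probes. The probe standing for the gene had levels of 2.69, 4.22 and 4.29 in WT and 3.56, 3.96 and 3.73 in Itpr2KO, a change of 0.02 ± 0.43 (SE). WT 1 was the lowest array for that probe. The other probe had levels of -0.34, 0.14 and 0.06 in WT and -0.74, -0.80 and -1.46 in Itpr2KO, without overlap, a difference of -0.96 ± 0.24 (SE). Without WT 1 and Itpr2KO 3 the probe standing for Cpt2 gave -0.49 ± 0.21 (SE), again with both Itpr2KO arrays below both WT arrays.

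Cpt1b, the muscle form of Cpt1a, was high on the arrays that held the muscle markers, 1 of each genotype. Its levels were -1.33, -3.54 and -3.62 in WT and -3.32, -3.85 and -1.47 in Itpr2KO, a change of -0.05 ± 0.83 (SE). WT 1 and Itpr2KO 3 were the high arrays on both Cpt1b probes. The fat markers (Adipoq and Cfd among 7, of which Lep was never above background) were also high on Itpr2KO 3, with log2 summed levels of 1.10, -0.92 and -2.45 in WT and -3.69, 0.66 and 3.93 in Itpr2KO. The part of other tissue in the values of the remaining genes was not tested, and in such bulk RNA a smaller share of a cell type and less RNA per cell cannot be told apart.

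**Figure D3:**
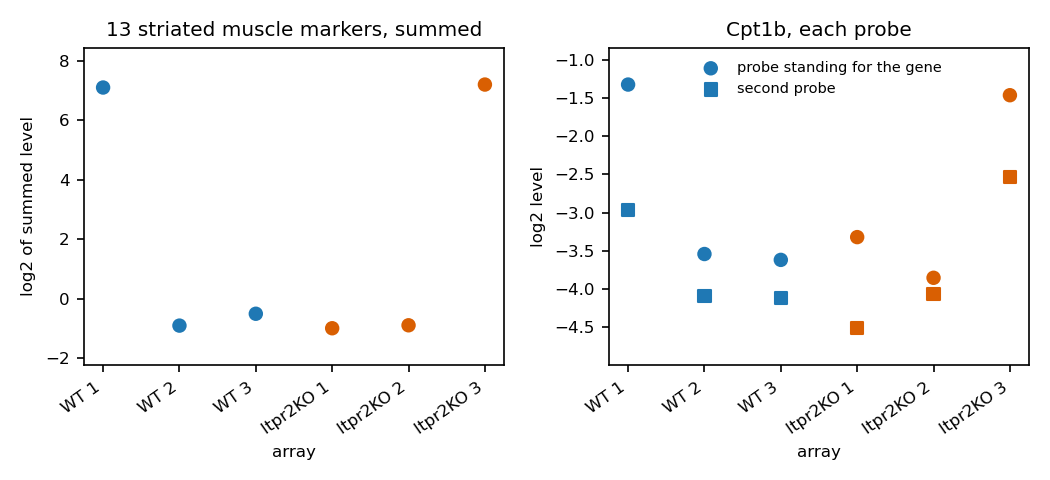
Left, log2 of the summed level of 13 striated muscle markers on each array; right, log2 level of the 2 Cpt1b probes on each array. WT arrays are blue and Itpr2KO arrays orange, and in both panels WT 1 and Itpr2KO 3 are the highest.

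In mitochondrial beta-oxidation 13 of 15 genes had a lower mean in Itpr2KO, with small changes and a median of -0.30. The median was -0.36 within slide 1 and -0.31 within slide 2, and the change was negative on both slides for 13 genes. Itpr2KO 1 lay below all WT arrays for 14 of the 15 genes and Itpr2KO 3 for 13, while Itpr2KO 2 did so for 3 and had a median distance of -0.01 from the WT mean. Without Itpr2KO 3 the branch median was -0.15.

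The acyl-CoA dehydrogenases start each cycle for a given chain length. Acads, for short chains, had levels of 1.19, 1.50 and 1.42 in WT and 1.02, 0.89 and 0.90 in Itpr2KO, a change of -0.43 ± 0.14 (SE, limma adjusted p = 0.811). The groups did not overlap for Acads, and its Itpr2KO arrays had an SD of 0.0706 against 0.16 in WT. Acadm, for medium chains, had levels of 5.58, 5.86 and 5.84 in WT and 5.02, 5.68 and 5.08 in Itpr2KO, a change of -0.50 ± 0.21 (SE). Itpr2KO 2 lay within the WT range for Acadm. The changes of Acadl (long chains), Acad11 and Acadvl (very long chains) were -0.33 ± 0.24, -0.37 ± 0.17 and -0.12 ± 0.13 (SE).

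Auxiliary enzymes prepare the double bonds of unsaturated fatty acids for the cycle. Eci1, an enoyl-CoA isomerase, had levels of 5.17, 5.85 and 5.74 in WT and 5.11, 5.36 and 4.50 in Itpr2KO, a change of -0.59 ± 0.28 (SE). Decr1, the mitochondrial dienoyl-CoA reductase, had levels of 6.60, 6.97 and 6.90 in WT and 6.43, 6.60 and 5.71 in Itpr2KO, a change of -0.58 ± 0.26 (SE). Without Itpr2KO 3 the Eci1 and Decr1 changes were -0.35 and -0.31. The second Decr1 probe gave -0.65 ± 0.24 (SE). Itpr2KO 3 was the lowest array for both genes, and the highest Itpr2KO array of Decr1 was just below the lowest WT array.

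The mitochondrial trifunctional protein carries out the remaining steps for long chains and is built from Hadha and Hadhb. Hadha had levels of 2.08, 2.48 and 2.34 in WT and 2.23, 2.02 and 2.04 in Itpr2KO, a change of -0.21 ± 0.15 (SE). Hadhb had levels of 5.15, 5.47 and 5.30 in WT and 4.92, 5.19 and 4.92 in Itpr2KO, a change of -0.30 ± 0.15 (SE). Their changes differed by 0.09, with an exact two-sided permutation p of 0.6. Hadha and Hadhb lie head to head on chromosome 5, where in the RefSeq table of build GRCm38.p6 their starts are 272 bases apart. The 250-base stretch before Hadha is shown since it lies between the starts of the pair, and 228 of its bases are shared with the stretch before Hadhb. It spans chr5:30154981-30155230 on the minus strand, and capitals mark the only match to GGGCGG on either strand.
Hadha: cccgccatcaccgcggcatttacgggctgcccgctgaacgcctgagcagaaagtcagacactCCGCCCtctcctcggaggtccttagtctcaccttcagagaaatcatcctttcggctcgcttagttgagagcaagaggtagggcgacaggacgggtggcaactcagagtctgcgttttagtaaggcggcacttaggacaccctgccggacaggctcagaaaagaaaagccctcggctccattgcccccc

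The changes of Hadh, Echs1 and Acaa2 (hydroxyacyl-CoA dehydrogenase, short-chain hydratase and thiolase) were -0.21 ± 0.20, 0.02 ± 0.20 and -0.07 ± 0.14 (SE). Electrons leave the dehydrogenases through Etfa, Etfb and Etfdh, with changes of -0.11 ± 0.18, 0.13 ± 0.16 and -0.32 ± 0.24 (SE). Echs1 and Etfb were the members of this branch with a higher mean in Itpr2KO.

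The peroxisomal genes had a lower mean in all 8 cases, with a median change of -0.39. Within slide 1, 5 of the 8 were lower, and within slide 2 all 8 were. Without Itpr2KO 3 the Acaa1a change was 0.04. The median was -0.10 within slide 1 and -0.63 within slide 2. It was -0.86 on Itpr2KO 3, -0.20 on Itpr2KO 1 and -0.17 on Itpr2KO 2 relative to the WT mean, and the branch median was -0.15 without Itpr2KO 3. Pex11a, which promotes the growth and division of peroxisomes, had levels of 4.73, 5.96 and 5.23 in WT and 4.02, 4.78 and 3.59 in Itpr2KO. Itpr2KO 1 and Itpr2KO 3 lay below the WT range for Pex11a and Itpr2KO 2 just inside it. The Pex11a change was -1.18 ± 0.41 (SE, limma adjusted p = 0.811), a level 2.26-fold higher in WT, and it was -1.32 and -1.04 within slides 1 and 2.

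The mouse has 2 genes for the peroxisomal 3-ketoacyl-CoA thiolase, which ends the cycle. Acaa1b had levels of 5.15, 6.47 and 5.96 in WT and 5.26, 5.10 and 3.87 in Itpr2KO, a change of -1.12 ± 0.47 (SE). Acaa1a had levels of 5.49, 5.97 and 5.99 in WT and 5.90, 5.80 and 5.34 in Itpr2KO, a change of -0.13 ± 0.22 (SE). WT 1 and Itpr2KO 1 were close for Acaa1b, and Itpr2KO 3 was the lowest array for both genes. The changes of the pair differed by -0.99, with an exact two-sided permutation p of 0.1 (adjusted 0.2 over the 6 pairs). Acaa1a and Acaa1b are close copies, and signal shared between their probes was not tested. The Acaa1b change was -0.68 without Itpr2KO 3, -0.55 within slide 1 and -1.47 within slide 2, and -1.04 ± 0.24 (SE) without both WT 1 and Itpr2KO 3.

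The stretches of 250 bases before both thiolase genes are shown because the genes are close copies read by separate probes. In GRCm38.p6, from RefSeq, the Acaa1a stretch is chr9:119341044-119341293 on the plus strand and the Acaa1b stretch chr9:119157094-119157343 on the minus strand. Capitals mark CCAAT on either strand, with 3 matches before Acaa1a and 2 before Acaa1b.
Acaa1a: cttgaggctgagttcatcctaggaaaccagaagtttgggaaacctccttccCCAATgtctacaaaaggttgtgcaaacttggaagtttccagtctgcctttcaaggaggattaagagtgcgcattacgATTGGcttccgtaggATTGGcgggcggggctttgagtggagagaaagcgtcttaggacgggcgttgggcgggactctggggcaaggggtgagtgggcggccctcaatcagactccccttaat
Acaa1b: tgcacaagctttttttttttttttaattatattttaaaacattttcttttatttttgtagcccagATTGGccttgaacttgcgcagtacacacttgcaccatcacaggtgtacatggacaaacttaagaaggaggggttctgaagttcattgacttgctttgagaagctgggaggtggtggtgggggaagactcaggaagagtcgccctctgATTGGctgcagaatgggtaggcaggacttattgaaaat

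Ehhadh, the peroxisomal bifunctional enzyme, had levels of 3.92, 4.98 and 4.98 in WT and 4.48, 4.17 and 3.63 in Itpr2KO, a change of -0.53 ± 0.36 (SE). WT 1 was low among the WT arrays, and the change was 0.025 within slide 1 and -1.08 within slide 2. It was -0.30 without Itpr2KO 3 and -0.66 ± 0.19 (SE) once both WT 1 and Itpr2KO 3 were left out. Ech1 and Eci2, which rearrange double bonds, changed by -0.47 ± 0.24 and -0.31 ± 0.23 (SE). The second bifunctional enzyme, Hsd17b4, changed by -0.26 ± 0.23 (SE). Decr2, the peroxisomal counterpart of Decr1, changed by -0.01 ± 0.27 (SE). The changes of Decr1 and Decr2 differed by -0.57, with an exact two-sided permutation p of 0.1 (adjusted 0.2).

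**Figure D4:**
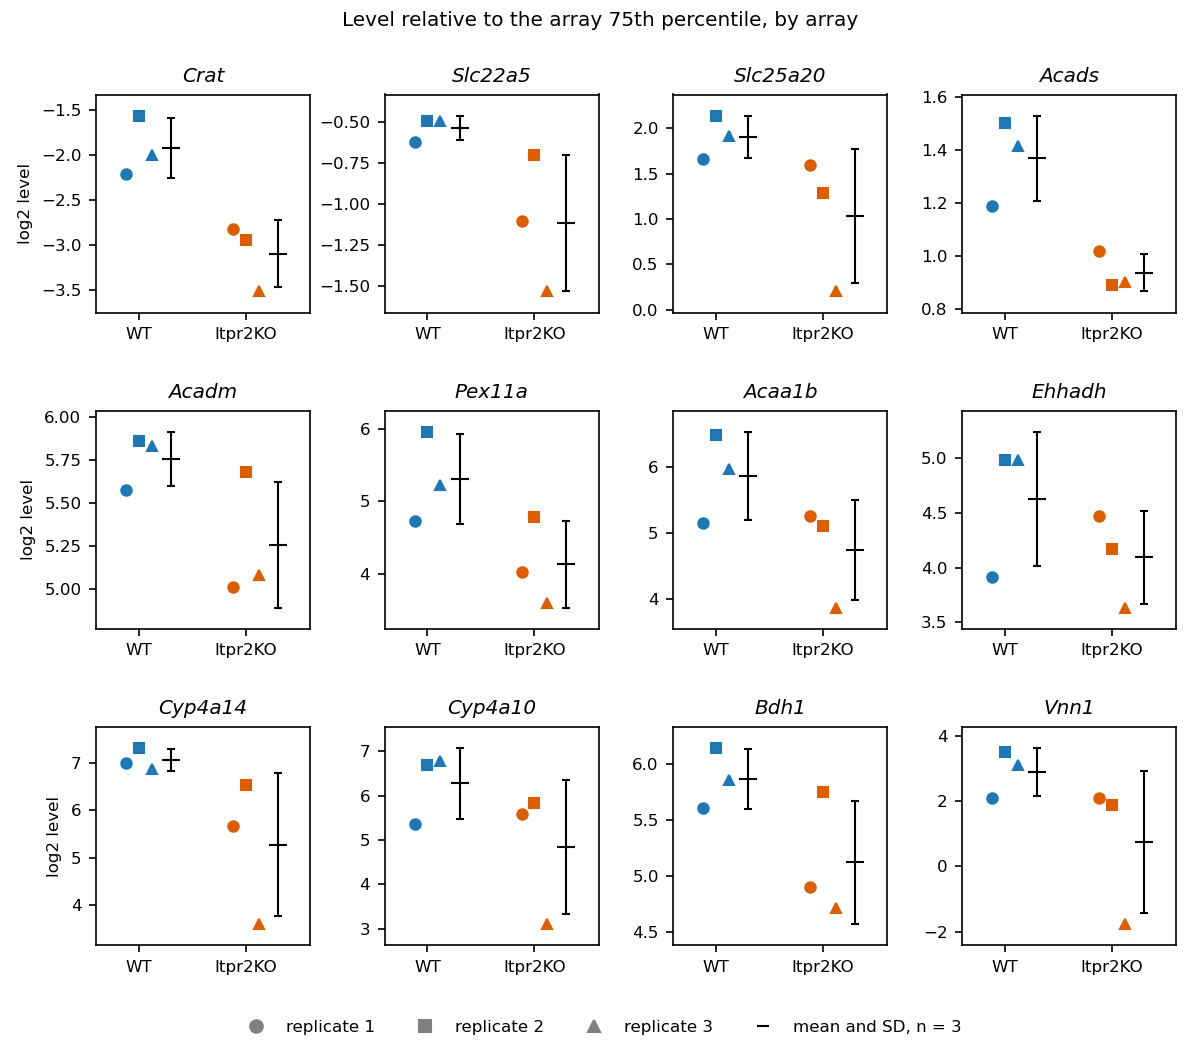
Log2 level of 12 of the genes on each array, with WT in blue, Itpr2KO in orange, a shape for each replicate and bars for the mean and SD (n = 3); the vertical axis differs between panels. For Crat, Slc22a5, Slc25a20, Acads and Cyp4a14 all Itpr2KO arrays lie below all WT arrays, and Itpr2KO 3 lies far below the others for Cyp4a14, Cyp4a10 and Vnn1.

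Omega-oxidation had a branch median of -1.61 over the 2 Cyp4a enzymes measured. The median was -0.96 within slide 1, -2.06 within slide 2 and -0.76 without Itpr2KO 3. Cyp4a14 had levels of 6.99, 7.32 and 6.87 in WT and 5.67, 6.54 and 3.61 in Itpr2KO. All Itpr2KO arrays were below WT for Cyp4a14, Itpr2KO 3 by far the most, and the SD was 0.23 in WT and 1.51 in Itpr2KO. Its change was -1.78 ± 0.70 (SE, limma adjusted p = 0.811), a level 3.44-fold higher in WT. It was -0.95 without Itpr2KO 3, and the fit without both arrays with muscle transcripts gave -0.99 ± 0.36 (SE).

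Cyp4a10 had levels of 5.36, 6.68 and 6.79 in WT and 5.59, 5.84 and 3.11 in Itpr2KO, a change of -1.43 ± 0.78 (SE). WT 1 lay below Itpr2KO 1 and Itpr2KO 2, so the groups overlapped through that array. It was -0.56 without Itpr2KO 3, -0.43 within slide 1 and -2.32 within slide 2. Leaving out WT 1 together with Itpr2KO 3 gave -1.02 ± 0.18 (SE). The other Cyp4a10 probes gave -1.48 and -1.70. The changes of Cyp4a14 and Cyp4a10 differed by -0.35, with an exact two-sided permutation p of 0.7. Cyp4a10 and Cyp4a14 belong to the same gene family, and signal shared between their probes was not tested.

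Ketone body synthesis was represented by Bdh1, the mitochondrial enzyme that interconverts acetoacetate and 3-hydroxybutyrate. Its levels were 5.60, 6.14 and 5.86 in WT and 4.90, 5.75 and 4.72 in Itpr2KO. Itpr2KO 1 and Itpr2KO 3 lay below the WT range and Itpr2KO 2 within it. The Bdh1 change was -0.74 ± 0.30 (SE, limma adjusted p = 0.811), a level 1.67-fold higher in WT. The other Bdh1 probes gave -0.68 and -0.83, and the change was -0.97 and -0.62 within slides 1 and 2. It was -0.67 ± 0.33 (SE) without WT 1 and Itpr2KO 3, no longer past an unadjusted p of 0.05.

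Further PPARA targets outside the enzymes of the cycle had a median change of -0.54 over 5 genes, 4 of them lower, and the spread between arrays was wide. Vnn1, a pantetheinase, had levels of 2.08, 3.50 and 3.10 in WT and 2.10, 1.88 and -1.76 in Itpr2KO. Itpr2KO 3 alone was far below the rest, and WT 1 lay at the level of Itpr2KO 1. The Vnn1 change was -2.15 ± 1.04 (SE), a level 4.44-fold higher in WT. It was -0.90 without Itpr2KO 3, -0.69 within slide 1 and -3.04 within slide 2. In the fit without both WT 1 and Itpr2KO 3 it was -1.31 ± 0.21 (SE), with both remaining Itpr2KO arrays below both WT arrays.

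Fgf21, a hormone released by the fasting liver, changed by -0.68 ± 0.68 (SE), and within slide 1 it changed by 0.13. Pdk4, a kinase that spares glucose by inhibiting pyruvate dehydrogenase, changed by -0.54 ± 0.32 (SE), with -1.37 within slide 1 and 0.24 within slide 2. Angptl4, an inhibitor of lipoprotein lipase, changed by 0.08 ± 0.48 (SE). The branch median was -0.01 within slide 1, -0.35 within slide 2 and -0.24 without Itpr2KO 1.

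Fabp1, the liver fatty acid-binding protein, had levels of 6.71, 6.60 and 6.87 in WT and 6.64, 6.02 and 7.04 in Itpr2KO. Itpr2KO 2 was the lowest array and Itpr2KO 3 the highest, where Itpr2KO 3 was the lowest for Cyp4a14 and Vnn1, and the Fabp1 change was -0.16 ± 0.27 (SE). Fabp1 was also the member whose promoter held a direct repeat of the kind PPARA binds. The stretch before its start is chr6:71199629-71199878 on the plus strand (GRCm38.p6, RefSeq), with capitals for the match to AGGNCA repeated after 1 spacer base, which lies on the opposite strand and begins 67 bases before the start.
Fabp1: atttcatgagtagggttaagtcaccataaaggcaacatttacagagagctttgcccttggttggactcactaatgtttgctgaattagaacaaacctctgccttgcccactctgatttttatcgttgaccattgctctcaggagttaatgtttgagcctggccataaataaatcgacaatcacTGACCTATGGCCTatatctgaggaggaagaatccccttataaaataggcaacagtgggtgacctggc

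The RefSeq table held promoters of 35 of the 45 genes, and motifs were searched on both strands of the 250 bases before the start. Cyp4a10, Cyp4a12a, Cyp4a14, Vnn1, Angptl4, Crat, Cpt1b, Decr1, Acaa2 and Hsd17b4 had no promoter there and were not searched. AGGNCA repeated after 1 spacer base was found before 1 of the 35 (2.86%) and before 0.400% of 27025 genes. AGGTCA repeated in the same way, which is a special case of it, was found before 0 of the 35 and 0.0407% of all genes. AGGTCA by itself was found before 14.3% of the 35 and 15.8% of all genes. GGGCGG was found before 65.7% and 35.4%, TATAAA before 5.71% and 14.3%, and CCAAT before 42.9% and 37.5%. A match describes letters only, and no match says only that these letters are not in the window.

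**Figure D5:**
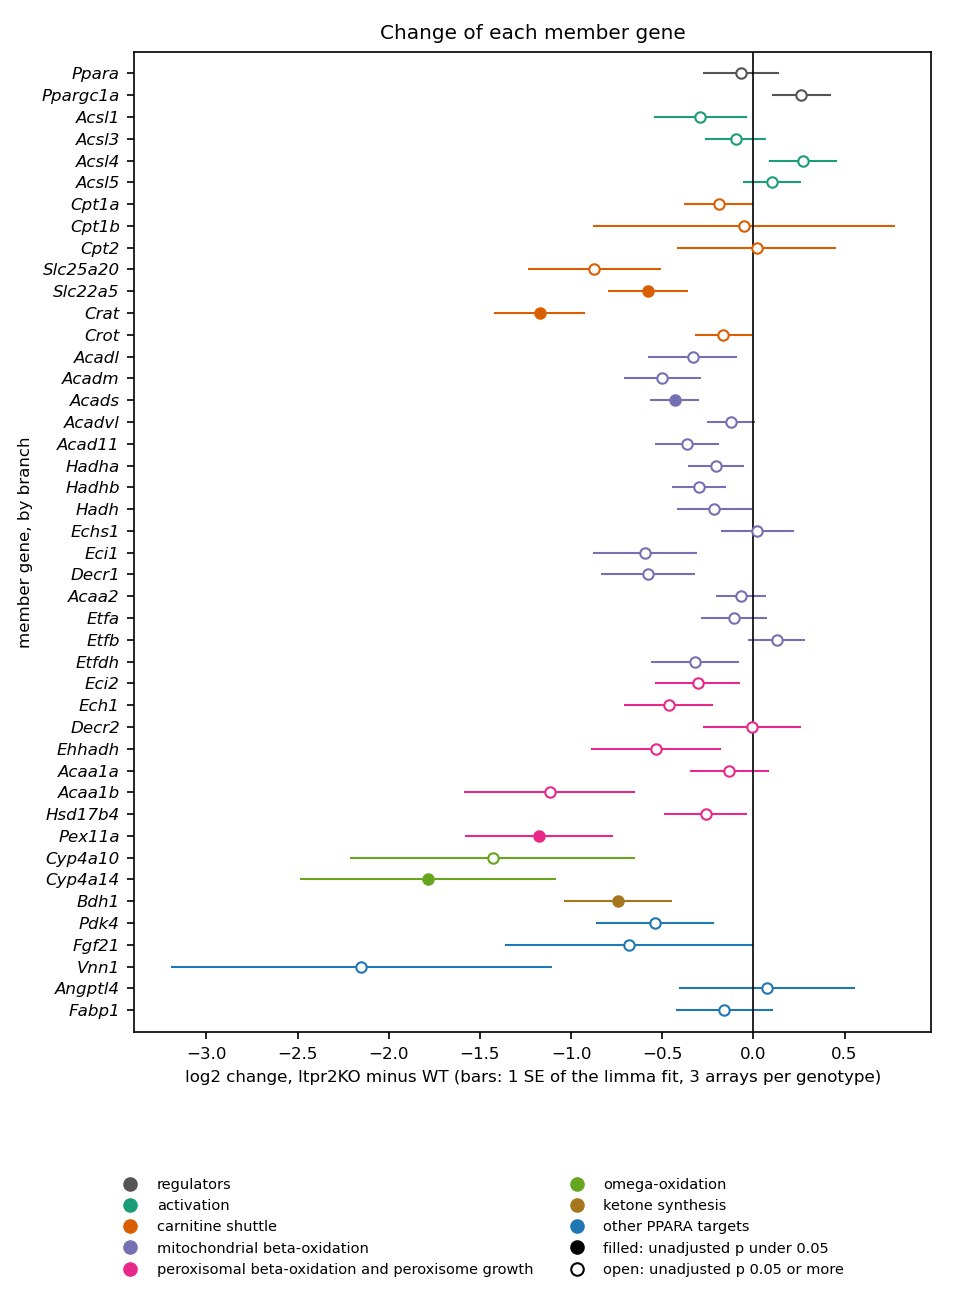
Log2 change of each of the 44 measured genes, Itpr2KO minus WT, with bars of 1 SE from limma (3 arrays per genotype); filled points have an unadjusted p under 0.05. The filled points are Slc22a5, Crat, Acads, Pex11a, Cyp4a14 and Bdh1, and 37 of the 44 points lie left of 0.

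Other genes of the same pathways were counted in the same way. Of 83 further genes listed, 80 were measured, and 50 had a lower mean in Itpr2KO, beside 45.9% of all genes. The median change was -0.06. The count was 34 without Itpr2KO 1 and 57 without Itpr2KO 2. It was 60 with arrays scaled to their median, which moved the median over all genes to -0.06 as well. Itpr2KO 1 lay below all WT arrays for 45 of the 80, against 31.6% of all genes. Itpr2KO 2 lay above all WT arrays for 42 of the 80, against 35.3% of all genes. At an unadjusted limma p under 0.05, 2 were lower, beside 2.66% of all genes, and 1 was higher, beside 3.46%, while 0 passed the adjusted threshold. Among peroxisomal genes 21 of 29 were lower, with a median of -0.10, and among mitochondrial genes and those of malonyl-CoA control 8 of 13 were lower, with a median of -0.01. Among carriers and activating enzymes 6 of 10 were lower, among ketone body genes 5 of 6, and among regulators 7 of 16. Among omega-oxidation and aldehyde genes 3 of 6 were lower, with a median of -0.46. Cyp4a31 and Cyp4a32, close copies of Cyp4a10, changed by -1.60 ± 0.73 and -1.32 ± 0.73 (SE), again with Itpr2KO 3 as the lowest array, and signal shared among Cyp4a probes was not tested.

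Aldh3a2 encodes the fatty aldehyde dehydrogenase that oxidises fatty aldehydes. Its levels were 2.10, 3.15 and 2.31 in WT and 1.20, 1.76 and 1.53 in Itpr2KO, without overlap, a change of -1.02 ± 0.30 (SE, limma adjusted p = 0.811). Fabp2, a fatty acid-binding protein known from intestine, had levels of 4.46, 5.86 and 5.14 in WT and 3.75, 4.54 and 4.11 in Itpr2KO, a change of -1.02 ± 0.38 (SE, limma adjusted p = 0.811). WT 1 lay just below Itpr2KO 2 for Fabp2. Cyp4f14, an omega-hydroxylase of another subfamily, had levels of 4.56, 4.19 and 4.59 in WT and 4.76, 5.04 and 4.78 in Itpr2KO, a change of 0.42 ± 0.17 (SE, limma adjusted p = 0.811). Cyp4f14 was thus higher on every Itpr2KO array, opposite to Cyp4a14.

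Levels that mark other cells or the feeding state were set beside these values. Kupffer cell markers (Cd5l and Clec4f among them) were lower for all 9 measured, with a median change of -0.55, and their log2 summed level was 7.28 to 8.23 in WT and 6.89 to 7.34 in Itpr2KO. The log2 summed level of 7 genes of the fasted liver was 7.20 to 8.29 in WT and 7.69 to 8.51 in Itpr2KO, and that of 8 genes of the fed liver was 7.30 to 8.08 and 7.76 to 7.96. Gene by gene, 5 of the 7 fasted-liver genes were higher in Itpr2KO, with a median change of 0.36, and 6 of the 8 fed-liver genes were lower, with a median of -0.46. The fed-liver genes with a higher mean were Acly and Scd1, at 0.44 ± 0.19 and 0.36 ± 0.26 (SE). The 11 clock genes measured had a median change of 0.01, with 5 lower and 6 higher and a range from -1.08 to 0.77. Single clock genes varied widely between arrays. Nr1d1 had levels of -3.79, -2.68 and -1.48 in WT and -4.68, -0.39 and -0.57 in Itpr2KO. The part of these differences in the changes of the fatty acid oxidation genes was not tested.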

How the data were processed

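Liver RNA was hybridised to 1-colour Agilent arrays, per the labels' protocols. The deposited scanner tables give an intensity per spot from which Agilent Feature Extraction had subtracted the background, with no scaling across arrays. The software is 11.5.1.1 in the file headers and 10.7.3.1 in the submitters' processing notes. A log2 matrix of 20644 probes, deposited by the authors, served as an alternative. Its columns labelled Itpr2KO 2 and Itpr2KO 3 matched the scanner values of each other, which leaves the genotype comparison unchanged, and the scanner tables decide the names here. The matrix columns' medians were 0.0021, -0.0094, 0.0050, -0.0127, 0.0106 and 0.0062 for WT 1 to 3 and Itpr2KO 1 to 3. Its values followed the scanner signal in direction, and its exact scaling and centring were not worked out.

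The processed intensity was taken to log2, averaged over the spots of a probe and reduced by the 75th percentile of its array. Control spots (1377 of 44397) and 818 spots marked as outliers were left out. Of 39429 probes, 28330 got a gene symbol through their accession in a RefSeq table of GRCm38.p6. Probes well above background on every array of WT, of Itpr2KO or of both entered (22297 probes), and each gene was read from its probe of highest mean (17991 genes, 13668 with a symbol). Genotypes were compared with limma 3.58.1 in R 4.3.3 (lmFit and eBayes, two-sided, Benjamini-Hochberg over all genes, threshold 0.05), and single differences by exact permutation. The limma fit was also run on simulated data with independent noise for each gene. Those data held no differences shared across an array, so they do not bear on such differences here.

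The members and lists were chosen with earlier results of these data known, so no count over them is independent evidence. Every member is accounted for. Levels on every array are given for members with an unadjusted p under 0.05, for the largest change of each branch, for Ppara, Cpt1a, Acsl1, Acadm, Hadha, Ehhadh, Bdh1 and Fabp1, and for further genes of the pathway with an unadjusted p under 0.05. Ppargc1a, Acsl4, Cpt1b, Cpt2, Slc25a20, Eci1, Decr1, Hadhb, Acaa1a, Acaa1b and Cyp4a10 were given in full after their values were seen, where that rule did not take them. WT and Itpr2KO arrays were mixed on each slide, and each slide was scanned on its own, so the slide was a block in alternatives. Alternatives also covered scaling, background correction, filters, probe rules, array weights and each array left out. Protein identity between copies was planned and not run, since no protein table was used here.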

Additional observations from a re-analysis of the deposited data

How the results depend on the processing

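Over the alternatives, the median change of the 44 genes was negative in each setting, from -0.84 to -0.19. Of the 44, 33 to 41 had a lower mean in Itpr2KO. Both the -0.84 and the 41 came from normexp background correction, which shifted many genes. In no tested setting did any pass the adjusted threshold, the smallest adjusted p being 0.139. The count at an unadjusted p under 0.05 was 4 with the slide as a fixed block or with no filter on dim probes. It was 9 with a probe above background on all 6 arrays, with a trend in the variance prior or with an added normexp fit. Without the muscle arrays it was 10, beside 3.54% of all genes. For alternatives that kept all arrays, here and below, the share of all genes was not computed. Their counts are not read as a result about the members. Leaving out single arrays gave 1 to 14 for the members and 1 to 7 for the other genes of the pathway, beside 1.73% to 4.52% of all genes.

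Normexp background correction, run on the median signal, moved most values: medians became -0.84 for all members, -0.32 for regulators, -0.47 for activation, -0.69 for the carnitine shuttle, -0.90 for mitochondrial and -1.03 for peroxisomal beta-oxidation, -1.32 for Bdh1 and -0.57 for the other genes of the pathway, with 29 and 24 genes at an unadjusted p under 0.05. The share of all genes at that p was not computed there. Under normexp the changes of Crat and Acsl4 were 0.55 and -0.41. With normexp fitted on the middle 98% of spots, chosen after seeing the data, the members' median was -0.34 and Crat changed by -0.50. The cause was not tested. The median over all genes moved by less than 0.1 in every setting, and under normexp it went from 0.02 to 0.09. That median hides shifts of opposite sign among genes. Under normexp, Acaa2 went from -0.07 to -0.67, Echs1 from 0.02 to -0.60 and Etfb from 0.13 to -0.51. Cpt1b, like Crat a gene of low signal, went from -0.05 to 0.99. Whether these shifts follow the signal level was not tested.

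The carnitine shuttle's median was -0.47 over the mean of each gene's probes, -0.39 and -0.44 within slides 1 and 2, -0.41 without the muscle arrays and -0.50 to -0.26 with single arrays left out. Activation moved to -0.078 under median scaling, and other PPARA targets to -0.18 with the slide as a fixed block and -0.011 within slide 1. With single arrays left out, medians ran from -0.40 to -0.19 for all members, -0.39 to -0.15 for mitochondrial and -0.53 to -0.15 for peroxisomal beta-oxidation, -1.06 to -0.54 for Bdh1, -0.78 to -0.24 for other PPARA targets, -0.01 to 0.18 for regulators, -0.05 to 0.06 for activation and -0.18 to 0.05 for the other genes of the pathway. The count of those at an unadjusted p under 0.05 was 1 with array weights, 3 with the slide as a fixed block and 5 without the muscle arrays. Within slide 1 Ehhadh, Hsd17b4 and Fgf21 changed by 0.025, 0.018 and 0.13, and within slide 2 Pdk4 by 0.24.

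The replicate numbers did not pair the arrays (correlations of deviations -0.19, 0.04 and -0.28 for numbers 1 to 3). With the replicate block, 7 members and 2 other genes of the pathway were lower at an unadjusted p under 0.05, and the members' median was -0.29. The share of all genes was not computed for that block. WT 1 and WT 3 correlated best with a knockout array of another number, and WT 2 with its own, at 0.04.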
